A study of Mus musculus with 10 samples.

Results

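The genes described here encode the proteins of the cytosolic ribosome. They were chosen by symbol: Rpl or Rps followed by a number and at most a short suffix, Rplp0, Rplp1, Rplp2 and Rpsa, with pseudogenes left out. A gene was a member if the array held a transcript cluster, a set of probes for 1 locus, that was listed with that symbol alone. Where a gene had more than 1 such cluster, the brightest over the 10 arrays was used. This gave 66 members among 22180 named genes, 42 of the large subunit and 24 of the small subunit. A further 13 coding genes of the same naming (Rpl10, Rpl12, Rpl13a, Rpl23, Rpl24, Rpl31, Rpl35a, Rpl36, Rpl36a, Rpl36al, Rps15a, Rps2 and Rps21) are not members, since they appeared only in clusters shared with other symbols. Other genes of the same naming are not analysed here.

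The ribosome reads messenger RNA with its small subunit and joins amino acids with its large subunit, and each subunit is ribosomal RNA covered by proteins that are needed in equal amounts. Ribosomal protein messages are among the most abundant in a liver cell, and most begin with a run of pyrimidines called the terminal oligopyrimidine (TOP) tract, through which the kinase complex mTORC1 controls their translation when insulin and amino acids are plentiful. Many of the genes carry small nucleolar RNAs, guides for the modification of ribosomal RNA, in their introns, and most have left many processed copies in the mouse genome.

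RNA came from livers of fasted male mice about 2 weeks after an adeno-associated virus whose TBG (thyroxine-binding globulin) promoter is active in hepatocytes. The virus carried either GFP as control or Fst288, which encodes a form of follistatin, a secreted protein that binds activins. Wild-type animals fed a high-fat diet gave the groups HFD GFP (n = 3) and HFD FST288 (n = 3), and mice labelled LTKO gave LTKO GFP (n = 2) and LTKO FST288 (n = 2). The labels do not spell out LTKO and do not state the diet or the background strain of those mice, so genotype and diet cannot be told apart in a comparison of LTKO with HFD. As background, the name is used for livers without the insulin receptor substrates Irs1 and Irs2 and the transcription factor Foxo1. Foxo1 lay at 4.58 to 5.15 on the LTKO arrays with either vector and at 6.60 to 6.86 on the HFD arrays, and Irs1 and Irs2 were also called lower in LTKO with both vectors. Fst was called higher with the Fst288 virus in both kinds of liver, by 1.08 ± 0.19 (SE) in HFD and 1.45 ± 0.23 in LTKO on the log2 scale.

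All levels are RMA values on the log2 scale, so a difference of 1 is a doubling. Array medians ran from 2.71 to 2.75 over all clusters, and every array correlated with its group mates at a mean of 0.989 or more. The number of arrays limits the precision. Separate animals per array are not stated in the labels, so the spread behind each p-value may be technical. The typical SD within a group was 0.158 for the members and 0.158 for all named genes. Pancreatic acinar markers, of a tissue next to the liver, stood high on HFD FST288 replicates 2 and 3 alone: the median level of 12 such markers was 7.46 and 6.08 there and 2.14 to 2.50 on the other 8 arrays. Counts over the members and the gene lists that use the HFD FST288 group are therefore given with all arrays first, and a later paragraph gives them without those 2 arrays.

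Start regions are shown because the TOP tract lies there, for the 6 members with the smallest p over the comparisons between 2 groups among those with a RefSeq start region, which Rplp1 lacks in the table used. Each sequence runs 5′ to 3′ on the gene's strand, from 60 bases before the annotated start of transcription to 15 bases into the transcript, and comes from RefSeq on the build GRCm38.p6. Capitals mark a C followed by at least 4 pyrimidines beginning exactly at the annotated start, with the rest of that run.
Rpl15, chr14:18270972-18271046, minus strand: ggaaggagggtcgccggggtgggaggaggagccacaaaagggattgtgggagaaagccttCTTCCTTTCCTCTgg
Rpl38, chr11:114668520-114668594, plus strand: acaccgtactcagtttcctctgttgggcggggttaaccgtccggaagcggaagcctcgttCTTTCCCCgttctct
Rpl35, chr2:39005117-39005191, minus strand: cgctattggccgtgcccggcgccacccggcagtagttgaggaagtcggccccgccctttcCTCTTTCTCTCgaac
Rpl41, chr10:128549154-128549228, minus strand: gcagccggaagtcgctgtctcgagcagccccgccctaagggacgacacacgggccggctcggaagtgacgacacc
Rpl19, chr11:98026650-98026724, plus strand: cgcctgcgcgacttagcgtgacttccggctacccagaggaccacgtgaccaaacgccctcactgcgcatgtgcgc
Rps12, chr10:23787195-23787269, minus strand: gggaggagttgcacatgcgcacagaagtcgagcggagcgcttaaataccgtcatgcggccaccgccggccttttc
Rpl15, Rpl38 and Rpl35 have a tract of 13, 8 and 11 bases at the annotated start. Rpl41, Rpl19 and Rps12 have none exactly there.

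Among all members, 51 of 66 had a RefSeq start region of 300 bases, with 60 regions in all. A gene is counted where any of its regions has the feature. A TOP tract began at the annotated start in 11 of the 51 (21.6%), against 3.01% of 27025 mouse genes. Within 10 bases of the start on either side the shares were 51.0% and 26.8%. The ETS-type motif CCGGAAG, searched on both strands, was present in 43.1% of the members and 9.93% of all genes. Counted by region it was in 36.7% of the 60 and 8.86% of all 32851 regions, and the TOP tract at the start in 18.3% and 2.51%. The GC box GGGCGG was present in 52.9% and 38.2%, the YY1-type motif AAGATGGC in 5.88% and 3.19%, and the E-box CACGTG in 7.84% and 8.09%. A match describes the letters in the window and nothing more.

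Members differed widely in level, from a mean of 1.65 for Rpl10l to 11.10 for Rpl21. The median over named genes was 3.12, and 52 members lay above it and 14 at or below it. A mean above 6 was reached by 35 members, another 17 lay between 3.12 and 6, and some core members read dim, such as Rpl11 at 2.35, Rplp2 at 2.36 and Rps15 at 2.33. Probes differ in response, so a level describes the cluster and does not rank the messages of different genes.

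Where the clusters lie bears on what they measure. By the genes of neighbouring cluster numbers, 45 brightest clusters lay on the gene's own chromosome, 17 among genes of another chromosome and 4 could not be placed. Of all named genes, 97.9% had their cluster on the own chromosome and 0.338% on another. The 17 include Rpl21, Rpl28, Rpl15, Rps6, Rpl29, Rpsa, Rps26, Rpl19 and Rpl3, and a cluster elsewhere may read a processed copy, the parent gene or both. Rps12 had 6 clusters with identical values on every array, and Rps19 and Rpl23a 2 each. Values for these genes are uncertain as values of 1 locus.

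In livers with the GFP virus, ribosomal protein messages stood higher in LTKO than in HFD. Of the 66 members 31 rose and 3 fell (limma, adjusted p under 0.05 over all named genes), against 6.69% of all named genes higher and 6.4% lower. The median log2 change was 0.39 for the members and 0.01 for all named genes. The 31 comprise 18 of 42 large-subunit and 13 of 24 small-subunit members, with medians of 0.31 and 0.47 over each subunit. In bulk liver, a change in cell numbers and a change in RNA per cell cannot be told apart.

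**Figure D1:**
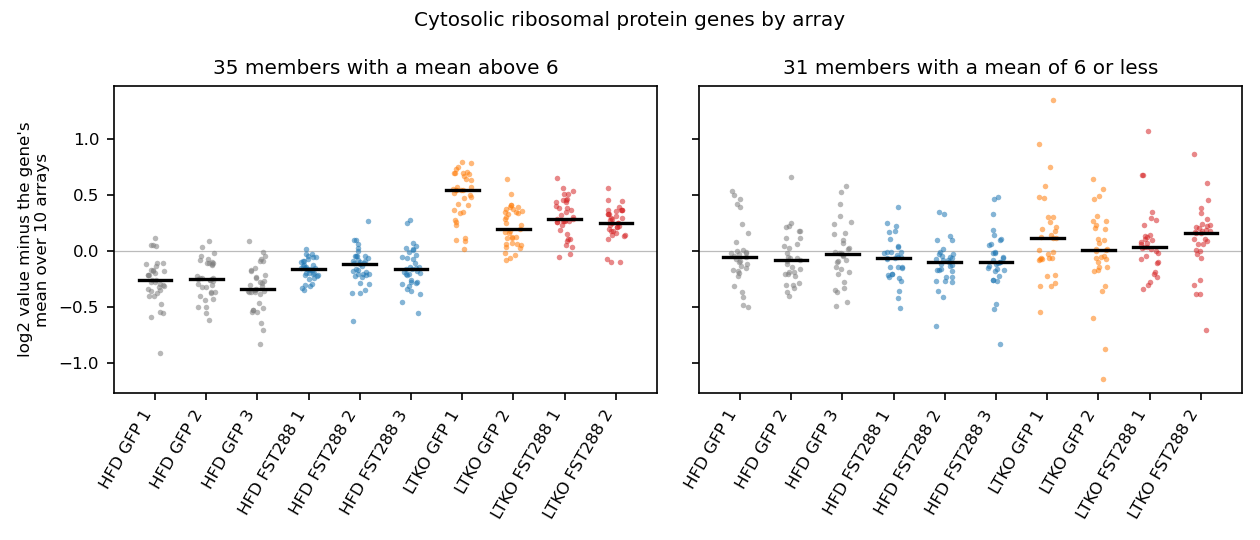
Log2 value of each member minus that gene's mean over the 10 arrays (vertical axis, log2 units) for every array (horizontal axis), with 1 point per gene and a bar at the median. Among the 35 members with a mean above 6 the medians are at or below -0.12 on the 6 HFD arrays and at or above 0.20 on the 4 LTKO arrays, with LTKO GFP 1 highest at 0.55. The 31 dimmer members differ less between groups.

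Read array by array, the median of the members, each centred on its own mean, was -0.19 to -0.17 in HFD GFP and -0.14 to -0.11 in HFD FST288. It was 0.35 on LTKO GFP replicate 1 and 0.12 on replicate 2, and 0.21 and 0.22 on the LTKO FST288 arrays. All 4 LTKO arrays thus lay above all 6 HFD arrays, and LTKO GFP replicate 1 stood highest. The median of all named genes, centred the same way, stayed between -0.01 and 0.01 on every array. Gene by gene, 31 members had every LTKO array above every HFD array, against 6.82% of all named genes, and 1 member, Rpl22l1, had every LTKO array below, against 6.45%.

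Of the large subunit, Rpl15 and Rpl38 had the smallest p-values of all members with GFP. Rpl15, a core protein of that subunit, read 9.58, 9.70 and 9.80 on the HFD GFP arrays and 10.84 and 10.53 on the LTKO GFP arrays. With FST288 it read 9.93, 9.96 and 9.95 in HFD and 10.61 and 10.47 in LTKO, so no LTKO array overlapped an HFD array. The LTKO-HFD difference with GFP was 0.99 ± 0.09, or 1.99-fold (limma, adjusted p = 1.1e-05). Rpl38, a surface protein known for its part in translating Hox messages, read 8.65, 8.79 and 8.65 in HFD GFP against 9.99 and 9.53 in LTKO GFP. It rose by 1.06 ± 0.11, or 2.09-fold (limma, adjusted p = 2.7e-05). Its groups did not overlap, and LTKO GFP 1 was the highest of the 10 arrays.

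Rpl3, which reaches towards the peptidyl transferase centre, had the largest rise of all members with GFP. It read 6.82, 6.62 and 6.34 in HFD GFP and 7.90 and 7.68 in LTKO GFP, a difference of 1.20 ± 0.19, or 2.29-fold (limma, adjusted p = 0.00078). Its HFD FST288 arrays read 6.84, 7.44 and 7.43 and its LTKO FST288 arrays 7.12 and 7.51, and those groups overlapped. Rpl41, the smallest ribosomal protein, read 9.57, 9.71 and 9.60 in HFD GFP and 10.61 and 10.34 in LTKO GFP (change 0.85 ± 0.09). Rpl19, at the interface of the subunits, rose by 0.89 ± 0.10 and Rpl32 by 0.96 ± 0.15. The other large-subunit members called higher were Rpl4, Rpl6l, Rpl7a, Rpl8, Rpl9, Rpl13, Rpl14, Rpl22, Rpl23a, Rpl29, Rpl35 and Rplp1, with changes from 0.27 (Rpl4) to 0.93 (Rpl23a).

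Rplp1, an acidic stalk protein that recruits elongation factors, read 9.71, 9.48 and 9.54 in HFD GFP and 10.45 and 10.27 in LTKO GFP, a rise of 0.78 ± 0.09. Rplp0, which anchors the stalk, showed 0.49 ± 0.18 and was not called (limma, adjusted p = 0.11), and Rplp2, the partner of Rplp1, showed 0.29 ± 0.21 at a dim level. Rpl5 and Rpl11, which bind 5S ribosomal RNA and can inhibit Mdm2, showed 0.05 ± 0.21 and 0.04 ± 0.18 from single-symbol clusters at mean levels of 3.89 and 2.35. Clusters listed with other symbols gave further readings. The Rpl5;Rpl5-ps2 cluster at 7.62 rose by 0.97 ± 0.19, and the Snora52;Rplp2 cluster at 7.56 by 1.09 ± 0.12, the latter also holding a small nucleolar RNA.

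Of the small subunit, Rpsa, also known as the laminin receptor, read 8.08, 8.09 and 7.74 in HFD GFP and 9.20 and 8.76 in LTKO GFP. The change was 1.01 ± 0.14, or 2.01-fold (limma, adjusted p = 0.00025). Rps26, at the messenger exit channel, read 7.61, 7.59 and 7.93 against 8.89 and 8.61, a change of 1.04 ± 0.12. Rps19 and Rps10, both mutated in Diamond-Blackfan anaemia, rose by 0.82 ± 0.11 and 0.92 ± 0.13, and Rps3, which lines the messenger entry site, by 0.80 ± 0.13. Rps10 is among the few members with a mean under 6 that rose. It read 4.39, 4.47 and 4.60 in HFD GFP and 5.51 and 5.31 in LTKO GFP, but 4.69 and 4.94 in LTKO FST288. Rps6, the substrate of the S6 kinases downstream of mTORC1, rose by 0.36 ± 0.08 from a high level. The other calls were Rps4x, Rps12, Rps24, Rps25, Rps27l, Rps28 and Rps29, with changes from 0.36 to 0.80.

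**Figure D2:**
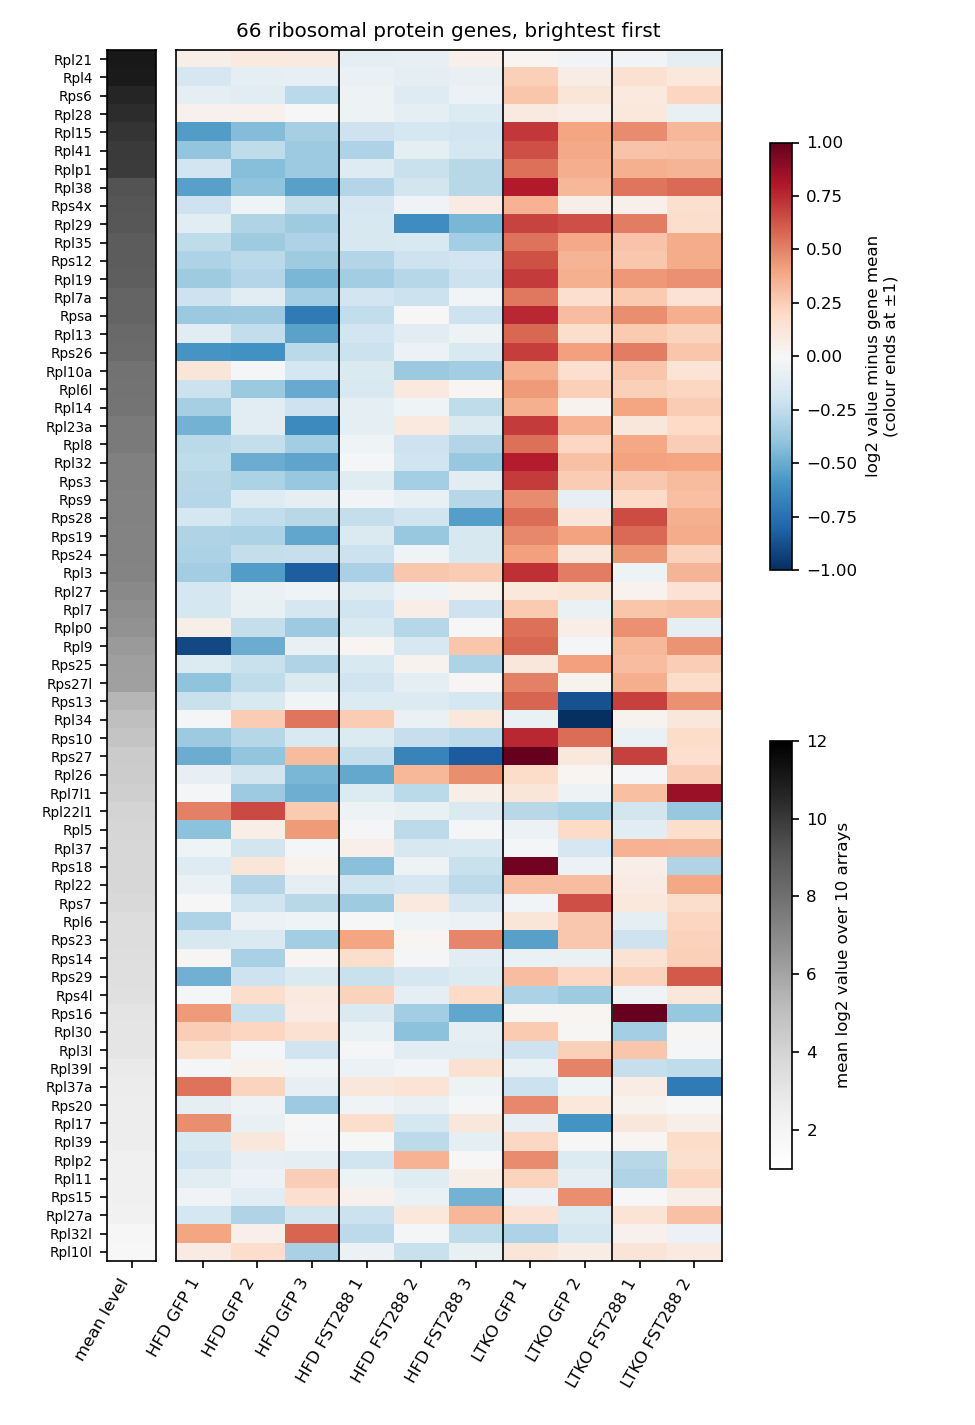
Colour map of all 66 members (rows, brightest first) on the 10 arrays (columns): the grey strip is the mean log2 value, and red or blue is the log2 value above or below the gene's own mean. Red fills the 4 LTKO columns and blue the HFD columns in most of the upper 35 rows, and the lower rows are mixed.

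Of the 35 with a mean above 6, 28 rose and 0 fell with GFP (limma; 31 had an unadjusted p under 0.05), with a median of 0.67. Among all 3568 named genes above 6, 20.2% rose and 19.5% fell, with a median of -0.00. Of the 31 dimmer members 3 rose and 3 fell, with a median of 0.12. Rps25 and Rps27l reach 6 only through the LTKO arrays, and both are among the 28. With the mean taken over the 6 HFD arrays, which was added after seeing the data, 26 of 33 members rose and 0 fell, against 17.8% higher and 21.9% lower among 3593 named genes. The 7 bright members not called were Rpl21, Rpl28, Rpl10a, Rpl27, Rps9, Rplp0 and Rpl7. Rpl21 read 11.15, 11.19 and 11.19 in HFD GFP and 11.12 and 11.07 in LTKO GFP, a difference of -0.09 with a 95% interval of -0.22 to 0.05. Rpl28 showed 0.05, with an interval of -0.10 to 0.20. The upper ends of both intervals lie below the 0.99 of Rpl15, whose mean of 10.14 exceeds 10 only through the LTKO arrays. The 5 members with a mean above 10 had a median change of 0.27 with GFP. Bright members rose at either kind of place: 13 of 15 on the own chromosome and 13 of 17 elsewhere, with medians of 0.66 and 0.77.

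**Figure D3:**
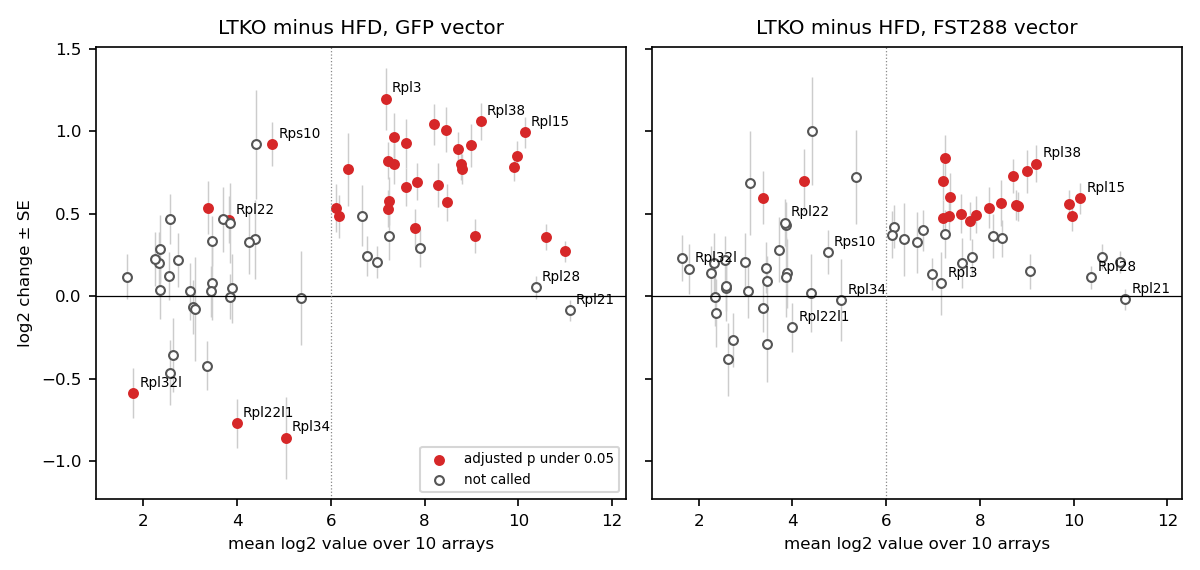
Log2 change of LTKO over HFD with its SE (vertical axis) against the mean log2 value over 10 arrays (horizontal axis) for the 66 members, with the GFP virus on the left and FST288 on the right. Filled points have an adjusted p under 0.05. With GFP 28 of the 35 points right of the dotted line at 6 are filled and all of those lie above 0, and the 3 filled points below 0 lie left of it.

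The 3 members that fell had means under 6, and each came with a related gene or cluster that rose. Rpl22l1, the paralogue of Rpl22, read 4.50, 4.65 and 4.25 in HFD GFP and 3.71 and 3.68 in LTKO GFP, with no overlap. It fell by 0.77 ± 0.15, or 1.71-fold (limma, adjusted p = 0.0031), whereas Rpl22 rose by 0.46 ± 0.14 (limma, adjusted p = 0.049). The Rpl22 call was lost in every fit that left out 1 HFD array. Rpl22l1 read 3.94, 3.92 and 3.85 in HFD FST288, also below HFD GFP. Rpl34 read 5.03, 5.29 and 5.57 in HFD GFP and 4.98 and 3.90 in LTKO GFP. Its fall of 0.86 ± 0.25 (limma, adjusted p = 0.036) rests on LTKO GFP replicate 2: without that array the change was -0.32 with an adjusted p of 0.42, and the call was also lost without HFD GFP 2 or 3 or HFD FST288 3. The brighter cluster listed as Rpl34;Rpl34-ps1, at 10.86, rose by 0.54 ± 0.09. Rpl32l, near the floor at a mean of 1.78, fell by 0.59 ± 0.15 (limma, adjusted p = 0.020), and Rpl32 rose by 0.96 ± 0.15. The Rpl32l call was lost in each of 4 fits that left out 1 of HFD GFP 1, HFD GFP 3, LTKO GFP 1 or LTKO GFP 2 (adjusted p 0.057 to 0.14).

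Without LTKO GFP replicate 1, which stood highest and leaves LTKO GFP with 1 array assumed to vary like the other groups, 19 of the 31 rises were kept and 23 members were called in all, and the median was 0.29. In every fit that left out 1 array, 18 of the 31 stayed called: Rpl3, Rpl6l, Rpl8, Rpl15, Rpl19, Rpl23a, Rpl29, Rpl32, Rpl35, Rpl38, Rpl41, Rplp1, Rps3, Rps10, Rps12, Rps19, Rps26 and Rpsa.

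With FST288 on both sides, a comparison on other arrays that shares the estimate of the spread, 20 members rose and 0 fell (limma; 33 had an unadjusted p under 0.05). Of all named genes 10.3% were called, 5.05% higher and 5.29% lower, and the members' median was 0.30 against -0.00. Among the 35 bright members 18 rose (median 0.45), against 14.8% higher and 19.8% lower among all named genes above 6. The calls with GFP and with FST288 shared 18 genes, which is 18 of 31 and 18 of 20. Rpl10a and Rpl7l1 were called with FST288 alone. Rpl38 read 8.90, 9.01 and 8.92 in HFD FST288 and 9.73 and 9.76 in LTKO FST288, a change of 0.80 ± 0.11 (limma, adjusted p = 0.00032). Rps28, a small-subunit protein, read 7.01, 7.04 and 6.69 against 7.90 and 7.60, and at 0.84 ± 0.14 had the largest called change here. Rpl19 rose by 0.73 ± 0.10, Rps19 by 0.69 ± 0.11 and Rpl15 by 0.59 ± 0.09. Rpl3 showed 0.08 ± 0.19 in this comparison, where its groups overlapped.

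The count with FST288 moved with single arrays, and whether it moved more than that of all named genes was not tested. It was 12 without LTKO FST288 replicate 1, which again leaves 1 array in its group, and 13 without HFD FST288 replicate 3. It was 5 without HFD FST288 replicates 2 and 3 together, which leaves HFD FST288 with 1 array assumed to vary like the other groups, and the median over all members was then 0.37. With the acinar markers as a covariate 9 members were called, and the median was 0.36 against 0.30. In every fit that left out 1 array, 10 of the 20 stayed called: Rpl15, Rpl19, Rpl29, Rpl35, Rpl38, Rpl41, Rplp1, Rps12, Rps19 and Rps28. Each of those fits kept at least 1 of the 2 HFD FST288 arrays with the acinar signal, and not all 10 calls held without both. Rpl29 lost its call with the acinar covariate, as did Rpl10a and Rpl7l1, the members called with FST288 alone. Of all members 41 had LTKO above HFD without overlap and 2 below, against 18.8% and 18.6% of all named genes.

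Without HFD FST288 replicates 2 and 3, 419 named genes rose and 520 fell in LTKO against HFD with FST288. The 35 bright members had a median change of 0.43, against -0.04 for all named genes above 6. Of the 57 clusters shared with other symbols 1 rose and 0 fell. On the own chromosome 3 of 45 members rose. Of the 19 other TOP messages 0 were called (limma; 7 had an unadjusted p under 0.05), with a median of 0.25. No translation factor, ribosome biogenesis gene or mitochondrial ribosomal protein gene was called (limma; 8, 5 and 8 had an unadjusted p under 0.05), and of the 35 mTORC1 and Myc genes 0 rose and 3 fell. Of 73 small nucleolar RNAs 32 rose and 0 fell (median 0.88), and of the 12 inside members 5 rose. No Kupffer cell or lymphocyte marker was called (limma; 7 of 9 and 3 of 10 had an unadjusted p under 0.05), and 1 hepatocyte marker fell. For FST288 in HFD livers, 0 small nucleolar RNAs (limma; 19 had an unadjusted p under 0.05) and 0 of the 11 p53-side genes (2 had an unadjusted p under 0.05) were called in the same fit. The difference of the FST288 effects was called there for 0 members (limma; 4 had an unadjusted p under 0.05).

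No member passed the threshold in the follistatin comparisons. In HFD livers 0 of 66 were called (limma; 13 had an unadjusted p under 0.05, as had 2672 of all named genes), against 0.996% of all named genes (0.577% higher and 0.419% lower), and the median was 0.08. Among named genes above 6, where 0 of 35 members were called (9 had an unadjusted p under 0.05), 2.72% rose and 1.54% fell. Without HFD FST288 replicates 2 and 3, 0 members were called. Rpl22l1 came nearest: it lay lower in every HFD FST288 array, with a change of -0.57 ± 0.13 (limma, adjusted p = 0.066). Rpl32l showed -0.52 ± 0.14 (adjusted p = 0.10) in limma, and Rpl3 showed 0.64 ± 0.17 (adjusted p = 0.11). Without HFD FST288 replicate 1, Rpl3 passed at 0.84 (limma, adjusted p = 0.023), and the arrays left then were those with the acinar signal. Without HFD GFP replicate 2, Rpl32l passed at -0.67 (limma, adjusted p = 0.041). In HFD 8 members lay higher in every FST288 array and 5 lower, against 9.3% and 9.11% of all named genes.

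In LTKO livers 0 of 66 were called (limma; 11 had an unadjusted p under 0.05), against 0.167% of all named genes, and the median was -0.06. Rps10, at 5.51 and 5.31 with GFP and 4.69 and 4.94 with FST288, showed -0.60 ± 0.15 (limma, adjusted p = 0.18). Rps13 is an example of 1 array deciding a value: it read 5.94 and 4.48 in LTKO GFP and 6.04 and 5.82 in LTKO FST288, so its change was 0.72 with all arrays, 1.44 (limma, adjusted p = 0.0037) without LTKO GFP replicate 1 and -0.01 without LTKO GFP replicate 2. The difference of the FST288 effects, LTKO minus HFD, was called for 0 members (limma; 12 had an unadjusted p under 0.05), against 0.216% of all named genes. Its median was -0.10, and the most extreme value was Rpl3 at -1.12 ± 0.27 (limma, adjusted p = 0.11), which passed without HFD FST288 replicate 1 at -1.32 (adjusted p = 0.029). The lower count of rises with FST288 than with GFP is therefore not shown to be a difference between the vectors.

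**Figure D4:**
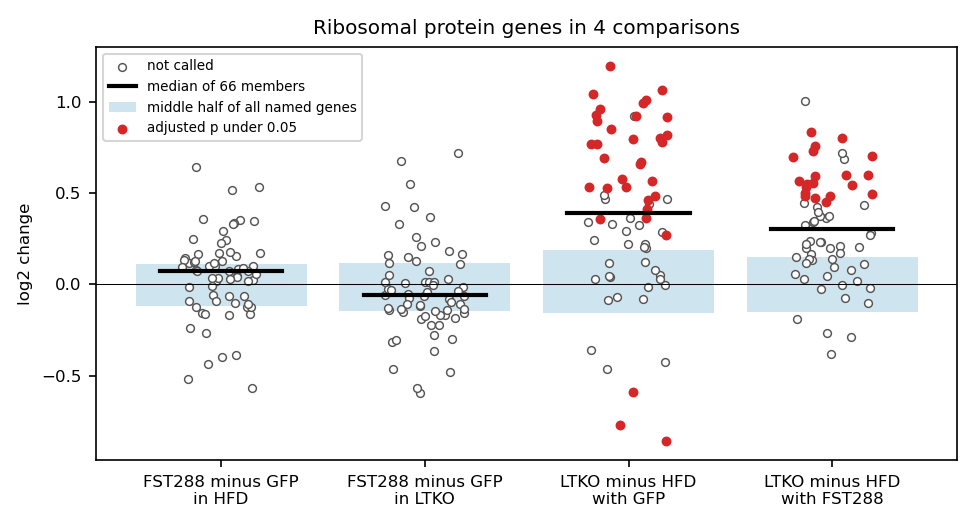
Log2 change of each of the 66 members (points) in 4 comparisons, with a black bar at the members' median and a blue band from the lower to the upper quartile of all named genes. No point is filled (adjusted p under 0.05) in the FST288 comparisons, where the medians are 0.08 and -0.06, and 34 and 20 points are filled in the LTKO comparisons, where the medians are 0.39 and 0.30.

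Paralogues, related copies that can take a protein's place in the ribosome, gave a value for several pairs. Rpl22 and Rpl22l1 went opposite ways with GFP, as above, and with FST288 showed 0.45 ± 0.14 and -0.19 ± 0.15, neither called. Rps4x, on the X chromosome, rose by 0.36 ± 0.10 with GFP, and its relative Rps4l showed -0.42 ± 0.15 (limma, adjusted p = 0.083). Rps27l, known as a target of p53, rose by 0.53 ± 0.14, and Rps27 showed 0.92 ± 0.33, a larger but noisier change (limma, adjusted p = 0.089) with values of 5.76 and 4.52 in LTKO GFP. The cluster Rps27;Rps27rt, at 8.88, rose by 1.06 ± 0.13. Rpl7l1, a factor of early large-subunit assembly, rose with FST288 by 0.70 ± 0.19 (4.55 and 5.12 in LTKO against 4.12, 3.98 and 4.31 in HFD), where Rpl7 showed 0.40 ± 0.12 (limma, adjusted p = 0.055). Rpl3l, Rpl39l and Rpl10l, tissue-restricted copies, lay at means of 2.99, 2.74 and 1.65 and were called in no comparison. With the 9 related copies left out, 29 of 57 members rose and 1 fell with GFP, with a median of 0.46.

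Clusters of 1 gene did not always agree. Rpl29 had the sharpest conflict: its brightest cluster, on another chromosome, rose by 0.91, and its cluster on the own chromosome, at 5.63, fell by 1.35 ± 0.30 (adjusted p = 0.026 in a limma fit of all clusters). Rpl41 had 5 clusters with changes from 0.34 to 1.61. Rpsa had an own-chromosome cluster at 2.94 that also rose, by 0.72 ± 0.16. Of the 17 members whose brightest cluster lay elsewhere, 13 had clusters on the own chromosome, 14 in all at levels of 1.47 to 5.63. Of these 14, Rpsa rose and Rpl29 fell with GFP, and the median was 0.23, so the rises of Rpl3, Rpl7a, Rpl9, Rpl13, Rpl19, Rps19, Rps26 and Rps28 are those of the brighter clusters. With only the 45 members placed on the own chromosome, 16 rose and 3 fell with GFP (median 0.29), and 11 rose and 0 fell with FST288 (median 0.23). Of these 45, 15 had a mean above 6, as had all 17 placed elsewhere.

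Clusters shared with other symbols were 57 in number and were tested with all clusters. The shares of all named genes given above come from another fit. With GFP 24 rose and 0 fell, with a median of 0.53. Of the 10 that name a small nucleolar RNA or microRNA 8 rose, and of the 47 that name none 16 rose (median 0.33). They add genes that are no members: Rpl12 at 9.73 rose by 0.86 ± 0.12, Rpl36 at 7.65 by 0.89 ± 0.12 and Rpl31 at 9.30 by 0.54 ± 0.11, while dimmer clusters of Rpl12 and Rpl31, at 3.32 and 4.39, were not called. Rpl23 at 10.35 showed 0.33 ± 0.10 (limma, adjusted p = 0.088) and Rpl10 at 9.25 showed 0.37 ± 0.11 (limma, adjusted p = 0.068). With FST288 13 of the 57 rose and 1 fell.

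Known TOP messages other than those of ribosomal proteins were also higher in LTKO. With GFP 9 of 19 rose and 0 fell (median 0.27), and with FST288 6 rose and 0 fell (median 0.28). Eef2, which moves the ribosome along the messenger, rose by 0.44 ± 0.06 with GFP. Fau, the precursor of the small-subunit protein Rps30, rose by 0.66 ± 0.13 with GFP and 0.69 ± 0.13 with FST288, and Tpt1 rose by 0.52 ± 0.09 with GFP. Of the members with a TOP tract at the annotated start 6 of 11 rose and 1 fell with GFP (median 0.44), and of those without 17 of 40 rose and 2 fell (median 0.34).

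The lists of TOP messages and of translation factors share genes, among them Eef2, so their counts are not independent. Of 42 translation factors 10 rose and 0 fell with GFP (median 0.12), among them the helicase Eif4a1 at 0.43 ± 0.07 and Eif6, which keeps the subunits apart, at 0.68 ± 0.13. With FST288 6 rose and Abce1, the ribosome recycling factor, fell by 0.34 ± 0.08. Of 48 ribosome biogenesis genes 7 rose and 0 fell with GFP (median 0.18), among them Mybbp1a at 0.72 ± 0.13, Nop2 at 0.66 ± 0.14 and the nucleolar protein Ncl at 0.50 ± 0.14. With FST288 4 rose, with Ltv1, a small-subunit assembly factor, at 0.59 ± 0.14, and Polr1a, the large subunit of RNA polymerase I, fell by 0.38 ± 0.11. Of 71 mitochondrial ribosomal protein genes 7 rose and 2 fell with GFP (median 0.10) and 3 rose with FST288 (median 0.05). For these 3 lists and the TOP messages, the shares among all named genes are 6.69% higher and 6.4% lower with GFP and 5.05% and 5.29% with FST288, and the shares above 6 are 20.2% and 19.5%, and 14.8% and 19.8%.

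**Figure D5:**
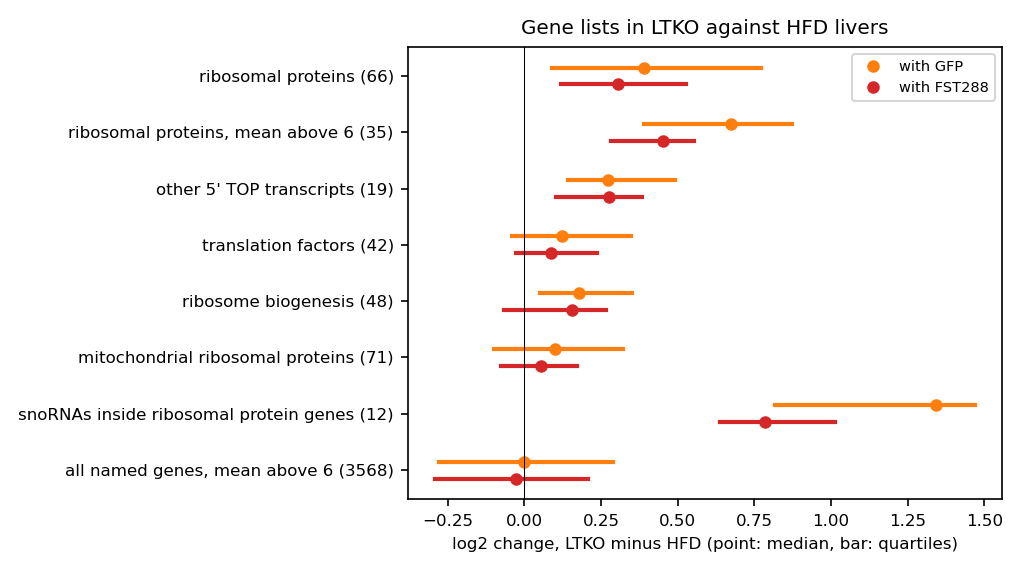
Median (point) and lower and upper quartile (bar) of the log2 change of LTKO over HFD for gene lists, with GFP in orange and FST288 in red and the number of genes in brackets. Ribosomal proteins with a mean above 6 have medians of 0.67 and 0.45, the 12 small nucleolar RNAs inside member genes 1.34 and 0.78, and all named genes above 6 lie near 0.

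Of 35 genes of mTORC1 and Myc control, which lie upstream of the ribosomal proteins, 3 rose and 3 fell with GFP and 4 rose and 3 fell with FST288, counts near the shares of all named genes given above. Ddit4 and Deptor, inhibitors of mTOR, fell by 1.40 ± 0.17 and 0.73 ± 0.10, and Sesn3, a sestrin, fell by 1.58 ± 0.14. Sesn2, another sestrin, rose by 0.83 ± 0.13, Eif4ebp2 by 0.43 ± 0.12 and Flcn by 0.51 ± 0.15. With FST288 Sesn3, Ddit4 and Deptor fell again and Mtor, Eif4ebp2, Akt1s1 and Myc rose, Myc by 0.64 ± 0.18. Array values are of RNA and not of kinase activity. The 11 genes on the p53 side of the ribosomal checkpoint had a median change of -0.095 with GFP, against 0.01 for all named genes. Among them Cdkn1a, a cell cycle inhibitor, rose by 2.66 ± 0.29 with GFP and 1.84 ± 0.29 with FST288. Cdkn1a and Eda2r rose with FST288 in HFD livers, by 1.27 ± 0.26 and 0.85 ± 0.18, where no member was called.

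Small nucleolar RNAs rose in LTKO with both vectors. Of 73 measured, 51 rose and 0 fell with GFP (median 1.04) and 50 rose and 0 fell with FST288 (median 0.77). By position, 43 lie inside 21 members and 12 of those were measured. Of the 12, 10 rose with GFP (median 1.34) and 8 with FST288 (median 0.78). The 21 members had medians of 0.29 and 0.21, but some of them hold only small nucleolar RNAs that were not measured. Those medians are therefore not the medians of the hosts of the 12. Snora33, inside Rps12, read 11.39 ± 0.07 (SD, n = 3) in HFD GFP and 12.83 ± 0.07 (SD, n = 2) in LTKO GFP, a rise of 1.45, against 0.80 for Rps12. Snord16a, inside Rpl4, rose by 1.29 against 0.27 for Rpl4, and Snord15a, inside Rps3, by 1.61 against 0.80. Snord72 and Snord58b rose by 1.73 and 1.44 inside Rpl37 and Rpl17, whose own changes of -0.00 and -0.47 were not called. The clusters of these 2 members read low, at means of 3.86 and 2.58, the latter below the named-gene median of 3.12. In HFD livers FST288 raised Snora33 by 0.31 and Snord58b by 0.74 (limma, adjusted p = 0.019 for each), and 8 of the 73 rose in all. Of the 21 members that hold small nucleolar RNAs 9 rose with GFP, and of the other 45 members 22 rose.

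Markers of other cells were set beside these counts. In LTKO against HFD with GFP, 0 of 9 Kupffer cell and macrophage markers and 0 of 10 lymphocyte markers were called (limma), and of 10 hepatocyte markers 1 rose and 4 fell. Centred medians of the Kupffer markers lay at -0.44 to 0.15 in HFD GFP and -0.02 to 0.04 in LTKO GFP, and those of the lymphocyte markers at -0.13 to 0.05 and -0.09 to 0.07. With FST288, 7 of 9 Kupffer markers rose, with centred medians of -0.44 to -0.08 in HFD and 0.17 and 1.42 in LTKO, replicate 2 being the higher. Centred medians of the hepatocyte markers lay at 0.06 to 0.10 in HFD GFP and -0.06 to -0.03 in LTKO GFP, which did not overlap, and at 0.01 to 0.05 in HFD FST288 and -0.18 to -0.03 in LTKO FST288. The per-array medians of the members were 0.21 and 0.22 on those LTKO arrays. Of the lymphocyte markers Cd3g and Cd3e rose with FST288, and 3 of 10 hepatocyte markers and 5 of 12 acinar markers fell. The acinar markers had centred medians of -0.80, 3.98 and 2.70 on the HFD FST288 arrays and at most -0.66 elsewhere. The part of these markers in the members' changes was not tested beyond the fits given above for the acinar markers.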

How the data were processed

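The data are 10 arrays of liver RNA (500 ng each). The authors deposited log2 values made with RMA in Affymetrix Expression Console, per the submitters' processing notes, with no version given in the sources used here. The log base is read from RMA and the range, 0.64 to 13.21. No array was renormalized, no column of another series was present (0), and 0 of the values for 41345 clusters were missing. Clusters listed with several symbols (1814) or with none (16010) were left out of the main fit, which used the brightest cluster of each of 22180 named genes.

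A model with 1 mean per group was fitted with limma 3.58.1 in R 4.3.3 (eBayes with an intensity trend, 6 residual and 7.15 prior degrees of freedom). Tests were two-sided, adjusted by Benjamini-Hochberg over all named genes within a comparison, and called under 0.05. The procedure was tested on simulated data. Errors of changes are SE. Lists have counts and medians and no test.

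The members and lists were chosen with earlier results of these data known. Named are all called members, 6 in each direction at least by unadjusted p, the paralogue pairs, the stalk, Rpsa, Rpl5 and Rpl11, the most and least variable members, and list genes called; other names were chosen after their values were seen. A cluster's place is the chromosome of at least 60% of the genes among 10 clusters on each side. Small nucleolar RNAs were assigned by position alone, since their strand is not given in the sources used here. Start regions are RefSeq's. Alternatives changed the normalization, moderation, weights, filter, clusters, arrays and covariates. Replicate numbers did not pair the samples.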

Additional observations from a re-analysis of the deposited data

How the results depend on the processing

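Of 238 recomputed counts and medians, 210 stayed close to their value, which means within 1.5 times for a count and within 0.066, the SD of the per-array median, for a median. Renormalizing by quantiles or medians kept all 31 and 20 rises in LTKO against HFD. With FST288 the rises fell to 12 with all clusters tested, 9 with the acinar covariate and 5 without HFD FST288 replicates 2 and 3; the cause was not tested. Medians with GFP and FST288 were 0.47 and 0.37 with genes at a mean of 2.73 or less left out (56 members). They were 0.53 and 0.38 in shared clusters, 0.29 and 0.23 on the own chromosome, and 0.51 and 0.39 above the named-gene median. Averaging all clusters per gene gave 0.24 with FST288 and kept 24 of the 31 rises with GFP and 15 of the 20 with FST288. Rpl29, Rpl35 and Rps24 then lost the call with both vectors, Rpl4, Rpl9, Rpl13 and Rps28 with GFP, and Rpl41 and Rps26 with FST288. The shared-cluster, own-chromosome and above-median sets were added after seeing the data. On the own chromosome 19 and 11 members were called, of 45, and the median difference of the FST288 effects was -0.026.

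With array weights 1 member was called for FST288 in HFD, Rpl22l1 at -0.57 (limma, adjusted p = 0.045). Leaving out each array gave counts of 0 to 1 for FST288 in HFD, 0 to 1 in LTKO and 0 to 1 for their difference, 23 to 35 with GFP and 12 to 27 with FST288. The medians ranged from 0.05 to 0.08, -0.12 to 0.044, -0.18 to -0.033, 0.29 to 0.54 and 0.28 to 0.31, in that order. Signs turned for uncalled values. For FST288 in LTKO, Rps13 ranged from -0.010 to 1.44 with 1 array left out, the lowest without LTKO GFP replicate 2. In LTKO against HFD with FST288, the same ranges were -0.77 to 0.0085 for Rpl37a, -0.17 to 0.0014 for Rps4l and -0.32 to 0.12 for Rplp2, which was 0.048 without HFD FST288 replicate 2, 0.20 with the acinar covariate and 0.15 without HFD FST288 replicates 2 and 3. The called rise of Rpl29 became -0.22 with GFP and -0.22 with FST288 over the mean of its 2 clusters, which disagree. Of the other recomputed values of named members, 1878 kept their direction and call and 165 lost the call.

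Samples of the same number shared no deviation (correlations -0.07 to 0.05, none of 13 over 0.1). With the replicate block 28 members were called with GFP, 17 with FST288 and 0 for FST288 in HFD, in LTKO or for their difference. The difference could not be fitted on the arrays of 2 groups alone. Array number and dim clusters limit the precision.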
